A study of Mus musculus with 8 samples.

Results

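Circular RNAs of 5 host genes of mitochondrial fuel oxidation and lipid metabolism, Oxct1, Bckdhb, Ogdh, Gyk and Acaca, were described in mouse kidney under 2 kinds of injury. The members were every circRNA that the deposited table assigns to 1 of these host genes: 12 of the 6315 circRNAs listed, with 4 from Bckdhb, 3 from Oxct1, 2 from Ogdh, 2 from Gyk and 1 from Acaca. The 5 genes were chosen with the differences of both injured groups from control known, so those differences are given here as a description, with no test read from them. Of the 12 circRNAs, 9 passed the filter on low counts and 3 did not. The filter keeps a circRNA that is high enough in any group, so the 9 are not a neutral sample of the 12.

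The libraries came from total RNA of whole kidneys of mice aged 8 to 10 weeks, with the strain given as C57BL/6L. UUO kidneys (n = 3) came from mice with unilateral ureteral obstruction, in which the ureter of 1 kidney is tied off, and carry day 5 in their titles. AC kidneys (n = 2) came from the model named acute-chronic and also carry day 5. The series' description names ischemia-reperfusion (I/R) beside UUO as the injuries harvested at day 5, and does not itself join I/R to the AC name. Control kidneys (n = 3) are titled WT, and the description calls the control mice sham-operated. No transgene or deletion is named for any group, and the labels do not say that the libraries of a group came from separate animals, so p-values measure the spread between libraries, which may be technical.

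A circRNA is made when the end of an exon is spliced back to the start of the same or an earlier exon of its host gene, and its level need not follow that of the host's mRNA or protein. Tubule cells of the kidney, above all those of the proximal tubule, draw most of their energy from mitochondrial oxidation of fatty acids, ketone bodies, amino acids and other acids. Oxct1 encodes the mitochondrial enzyme that activates acetoacetate, the step by which tissues outside the liver use ketone bodies. Bckdhb encodes a subunit of the enzyme complex that commits the branched-chain amino acids to breakdown, and Ogdh the first component of the 2-oxoglutarate dehydrogenase complex of the citric acid cycle. Gyk encodes glycerol kinase, which makes glycerol 3-phosphate for lipid and glucose synthesis, and Acaca encodes acetyl-CoA carboxylase 1, which makes malonyl-CoA, the building block of fatty acids and an inhibitor of their entry into mitochondria.

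The promoters of 4 hosts are shown because the summed circRNA counts of these hosts did not overlap between UUO and control libraries. Each runs from 250 bases before to 50 bases after a start of the gene in RefSeq (GRCm38.p6), on the gene's own strand, 5′ to 3′. Bckdhb has 2 such windows and Ogdh 6. For each, the one taken was nearest the start of a transcript that the GENCODE annotation links to the source transcript's RefSeq entry. Whether the starts shown, or that of Acaca, are the ones used in kidney was not tested. Capitals mark a GC box (GGGCGG) or a CCAAT box (CCAAT) on either strand. The windows lie at chr15:4026178-4026477 on the plus strand (Oxct1), chr9:83948531-83948830 on the plus strand (Bckdhb), chr11:6291409-6291708 on the plus strand (Ogdh) and chrX:85776770-85777069 on the minus strand (Gyk, listed in RefSeq as Gk).
Oxct1: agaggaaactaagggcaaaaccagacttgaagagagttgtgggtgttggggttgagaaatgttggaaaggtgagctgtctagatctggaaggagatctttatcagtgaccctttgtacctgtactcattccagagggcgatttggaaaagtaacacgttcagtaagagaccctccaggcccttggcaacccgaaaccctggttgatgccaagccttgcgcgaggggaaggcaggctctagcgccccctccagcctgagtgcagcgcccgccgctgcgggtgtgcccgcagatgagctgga
Bckdhb: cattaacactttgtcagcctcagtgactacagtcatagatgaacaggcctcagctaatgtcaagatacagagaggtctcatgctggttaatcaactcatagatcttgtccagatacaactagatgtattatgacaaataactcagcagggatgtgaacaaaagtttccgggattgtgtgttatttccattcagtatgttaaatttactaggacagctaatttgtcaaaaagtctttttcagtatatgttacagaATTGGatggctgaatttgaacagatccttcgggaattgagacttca
Ogdh: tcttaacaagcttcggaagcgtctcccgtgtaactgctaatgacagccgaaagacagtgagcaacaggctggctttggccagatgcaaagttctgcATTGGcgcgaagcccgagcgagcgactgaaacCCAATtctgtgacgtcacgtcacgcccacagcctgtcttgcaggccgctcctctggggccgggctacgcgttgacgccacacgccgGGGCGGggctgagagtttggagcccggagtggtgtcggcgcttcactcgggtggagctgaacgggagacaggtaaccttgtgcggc
Gyk: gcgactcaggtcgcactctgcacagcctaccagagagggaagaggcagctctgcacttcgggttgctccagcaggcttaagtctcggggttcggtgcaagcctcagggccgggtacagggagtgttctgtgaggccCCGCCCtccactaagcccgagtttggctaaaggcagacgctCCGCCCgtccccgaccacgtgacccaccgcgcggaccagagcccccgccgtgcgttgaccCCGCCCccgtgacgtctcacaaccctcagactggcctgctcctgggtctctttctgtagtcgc

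Of 7 short motifs searched on both strands of these windows and that of Acaca, 2 were found. The GC box GGGCGG, which the general factor SP1 binds, was in the windows of Ogdh and Gyk, and 35.7% of the 32851 mouse promoter windows of the same length hold it. In Gyk it occurred 3 times on the other strand, with its first bases at -114, -73 and -13 from the start, and in Ogdh once, at -36. The CCAAT box was in the windows of Bckdhb and Ogdh, and 37.4% of all windows hold it. In Bckdhb it lay after the start, with its first base at 5 on the other strand. In Ogdh it lay at -122 on the gene strand and at -154 on the other strand. The letters AGGTCA, a core of many nuclear receptor sites, were in none of the 5 host windows and in 16.3% of all. Likewise absent from these 5 windows were TCAAGGTCA (estrogen-related receptors, 0.423% of all windows; it contains AGGTCA), CAAAGTCCA (HNF4, 0.475%), GCATGCGC (NRF1, 2.71%) and the core promoter element TATAAA (13.6%). GC content was 65.7% in Gyk, 61.3% in Ogdh and 55.3% in Oxct1, against 37.3% in Bckdhb, 39.7% in Acaca and a median of 52.7% over all windows. A match here is a match of letters and says nothing of binding.

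Counts per library, over all listed circRNAs, were 46899 to 57754 in UUO, 40865 and 49147 in AC, and 43971 to 65145 in control kidneys. Levels are given as counts and as CPM, a level relative to the library's circRNA counts kept by the filter after TMM scaling, on which 1 count was worth 18.9 to 29.2 CPM depending on the library. Sums per host are on the scale of their own fit, where 1 count was worth 17.8 to 26.2 CPM, so CPM of a circRNA and of a host sum are not comparable. As a check of the tissue, host genes of marker lists were looked up among the circRNAs. The proximal tubule marker Lrp2 was a host (1 of 15 markers), as were Klhl3 of the distal nephron (1 of 7), Magi2 of podocytes (1 of 5) and Flt1 of endothelium (1 of 5). None of 6 collecting duct, 6 fibroblast and pericyte or 7 immune markers was a host of a listed circRNA, so such cells cannot be followed here. Summed over its circRNAs, Klhl3 had 355 to 677 CPM in UUO, 353 and 700 CPM in AC and 1985 to 2699 CPM in control libraries, so it too was lower in injured kidneys. Lrp2 had 273 to 685 CPM in UUO, 613 CPM in both AC libraries and 239 to 1736 CPM in control libraries. Magi2 had 76.1 to 397 CPM in UUO, 259 and 379 CPM in AC and 165 to 425 CPM in control. Flt1 had 0 to 147 CPM in UUO, 0 and 146 CPM in AC and 94.4 to 133 CPM in control. No circRNA of Magi2 or Flt1 passed the filter on low counts, so the sums of both rest on few counts. The part of these markers in the values below was not tested, and in whole kidney fewer cells of a type and less RNA per cell cannot be told apart.

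Taken as 1 pool, the circRNAs of the 5 hosts held less of the library in each injured kidney than in any control kidney. They made up 1.07%, 0.867% and 0.914% of all circRNA counts in UUO libraries, 0.989% and 0.964% in AC libraries, and 2.22%, 2.21% and 2.07% in control libraries. The mean share was 0.951% ± 0.106 in UUO (SD, n = 3), 0.977% ± 0.0175 in AC (n = 2) and 2.17% ± 0.0828 in control (n = 3). On the CPM scale the pooled level in UUO was 43.9% and in AC 44.2% of the control mean. Both AC libraries lay within the UUO range, and control libraries within a narrow band above both groups. Of pooled counts, Acaca held 187 of 977 in control replicate 1, 45 of 1439 in replicate 2 and 60 of 1193 in replicate 3. The narrowness of the control band thus rests partly on Acaca in control replicate 1. The pool is dominated by Ogdh and Bckdhb, whose main circRNAs ranked 16 and 27 by mean level among the 1471 circRNAs tested.

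**Figure D1:**
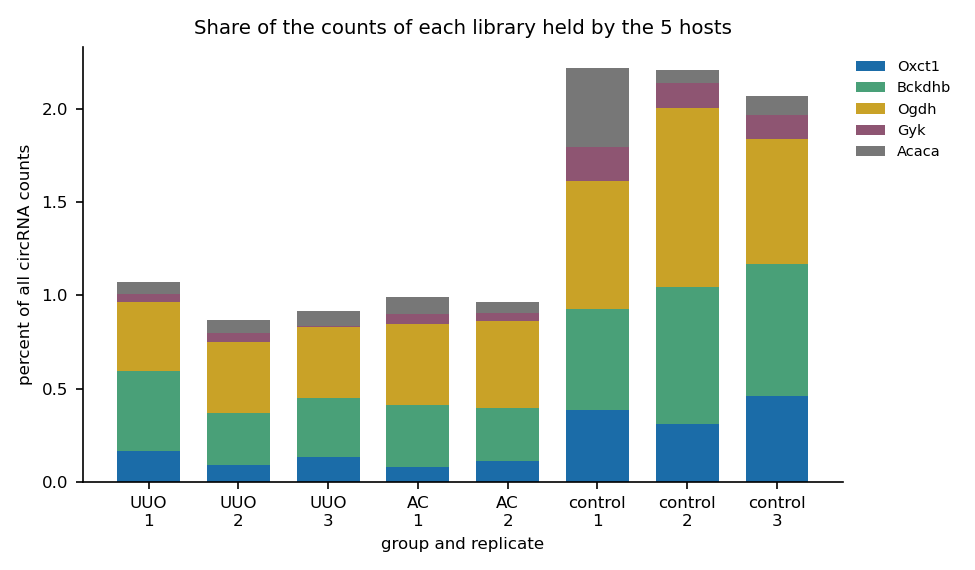
The circRNA counts of the 5 hosts as a percent of all circRNA counts in each library, by group, each bar 1 library, stacked by host. UUO libraries lie between 0.867% and 1.07%, AC libraries between 0.964% and 0.989%, and control libraries between 2.07% and 2.22%.

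Ketone body use was represented by 3 circRNAs of Oxct1. The most abundant, mmu_circ_0000571, had 55, 23 and 65 counts in UUO libraries, 40 and 31 in AC libraries, and 112, 125 and 156 in control libraries. Every injured library was below every control library, while UUO replicate 2 was the lowest of all and the other UUO libraries were above both AC libraries. Its level averaged 1099 ± 487 CPM in UUO, 923 ± 26.9 CPM in AC and 2854 ± 446 CPM in control (SD, n = 3, 2 and 3). Relative to control that is 2.59-fold lower in UUO (log2 fold change -1.37 ± 0.32, SE) and 3.08-fold lower in AC (-1.62 ± 0.37).

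The second Oxct1 circRNA, mmu_circ_0005660, had 23, 23 and 11 counts in UUO, 0 and 14 in AC, and 55, 74 and 99 in control libraries. Again no injured library reached a control library, and AC replicate 1 held none. Its level averaged 451 ± 192 CPM in UUO, 204 ± 289 CPM in AC and 1635 ± 358 CPM in control. The fitted difference was 3.65-fold lower in UUO (log2 -1.87 ± 0.54) and 8.46-fold lower in AC (-3.08 ± 0.72). The AC value rests on the library with no count: without AC replicate 1 it is -2.04 on the log2 scale. The third, mmu_circ_0005661, did not pass the filter, with 0, 0 and 1 counts in UUO, 0 and 0 in AC, and 2, 1 and 9 in control. Its summed level was 11.2-fold lower in UUO than in control, with a 95% counting interval of 1.66 to 479 that leaves out the spread between libraries. With AC set at 3 counts in all it was 2.21-fold lower there, leaving out the counting error of control.

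Breakdown of branched-chain amino acids was represented by 4 circRNAs of Bckdhb. The main one, mmu_circ_0001822, had 155, 116 and 152 counts in UUO, 126 and 91 in AC, and 181, 360 and 326 in control libraries. Per library size all 5 injured libraries were below the lowest control library, with UUO at 2709 to 3933 CPM, AC at 2654 and 2968 CPM, and control at 4812 to 6794 CPM. The difference from control was 1.87-fold lower in UUO (log2 -0.90 ± 0.21) and 2.18-fold lower in AC (-1.12 ± 0.24).

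Next in level, mmu_circ_0015952 of Bckdhb had 26, 17 and 20 counts in UUO, 28 and 19 in AC, and 43, 87 and 55 in control. Its injured libraries lay at 397 to 660 CPM in UUO and 554 and 660 CPM in AC, all under the 1137 to 1642 CPM of control. It was 2.67-fold lower in UUO (log2 -1.42 ± 0.34) and 2.15-fold lower in AC (-1.10 ± 0.38).

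Another Bckdhb circRNA, mmu_circ_0015953, had 20, 8 and 9 counts in UUO, 9 and 3 in AC, and 14, 32 and 26 in control. Here UUO and control overlapped, since UUO replicate 1 at 508 CPM was above control replicate 1 at 372 CPM, while both AC libraries, at 212 and 87.5 CPM, were below all control libraries. The log2 difference from control was -0.79 ± 0.54 in UUO (-1.41 without UUO replicate 1) and -1.71 ± 0.67 in AC (-2.54 without AC replicate 1). The fourth, mmu_circ_0015955, had 0 counts in all UUO libraries, 0 and 4 in AC, and 0, 0 and 1 in control, too few for a fold.

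The citric acid cycle was represented by 2 circRNAs of Ogdh. The most abundant member of all, mmu_circ_0000231, had 174, 195 and 221 counts in UUO, 212 and 186 in AC, and 301, 618 and 378 in control libraries. On the CPM scale the 3 groups did not overlap, with UUO lowest at 4415 to 4640 CPM, AC next at 4994 and 5426 CPM, and control highest at 7815 to 11663 CPM. UUO libraries were close to one another (4536 ± 113 CPM), whereas control libraries were spread by replicate 2 (9161 ± 2170 CPM). The level was 2.02-fold lower than control in UUO (log2 -1.01 ± 0.18) and 1.76-fold lower in AC (-0.82 ± 0.21). The minor Ogdh circRNA, mmu_circ_0003202, had 0 counts in every UUO library, 0 and 5 in AC, and 1, 9 and 8 in control. It did not pass the filter. With UUO set at 3 counts in all it was 5.61-fold lower there than in control, leaving out the counting error of control.

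Glycerol use was represented by 2 circRNAs of Gyk, the sparsest host of the 5. The main one, mmu_circ_0016389, had 19, 25 and 0 counts in UUO, 20 and 12 in AC, and 54, 82 and 62 in control libraries. All injured libraries were below all control libraries, and UUO replicate 3 held none although it was the deepest of its group. Its level averaged 355 ± 312 CPM in UUO, 411 ± 85.7 CPM in AC and 1422 ± 133 CPM in control. That is 4.06-fold lower in UUO (log2 -2.02 ± 0.60; -1.43 without UUO replicate 3) and 3.42-fold lower in AC (-1.78 ± 0.69).

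The other Gyk circRNA, mmu_circ_0016388, had 0, 0 and 3 counts in UUO, 6 and 5 in AC, and 27, 6 and 13 in control. The library with its 3 counts was UUO replicate 3, the one that held none of the main Gyk circRNA. AC libraries, at 141 and 146 CPM, lay within the control range of 113 to 718 CPM, and UUO libraries lay below it. The summed level in UUO was 14.3-fold lower than in control, with a 95% counting interval of 4.61 to 72.0 that leaves out the spread between libraries. In the fit, which takes in that spread, the log2 difference of UUO was -3.85 ± 1.19 (95% interval -6.36 to -1.34). Without UUO replicate 3 the UUO libraries held no count of it. The log2 difference of AC from control was -1.32 ± 1.13.

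Fatty acid synthesis was represented by the single listed circRNA of Acaca, mmu_circ_0000301. It had 30, 35 and 46 counts in UUO, 45 and 24 in AC, and 187, 45 and 60 in control libraries. Control replicate 1, at 4972 CPM, stood far above every other library, and the other control libraries, at 849 and 1241 CPM, overlapped UUO at 761 to 966 CPM and AC at 700 and 1060 CPM. The log2 difference from control was -1.45 ± 0.49 in UUO and -1.39 ± 0.57 in AC. Without control replicate 1 these were -0.29 in UUO and -0.23 in AC, so the size of both rested on that library.

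**Figure D2:**
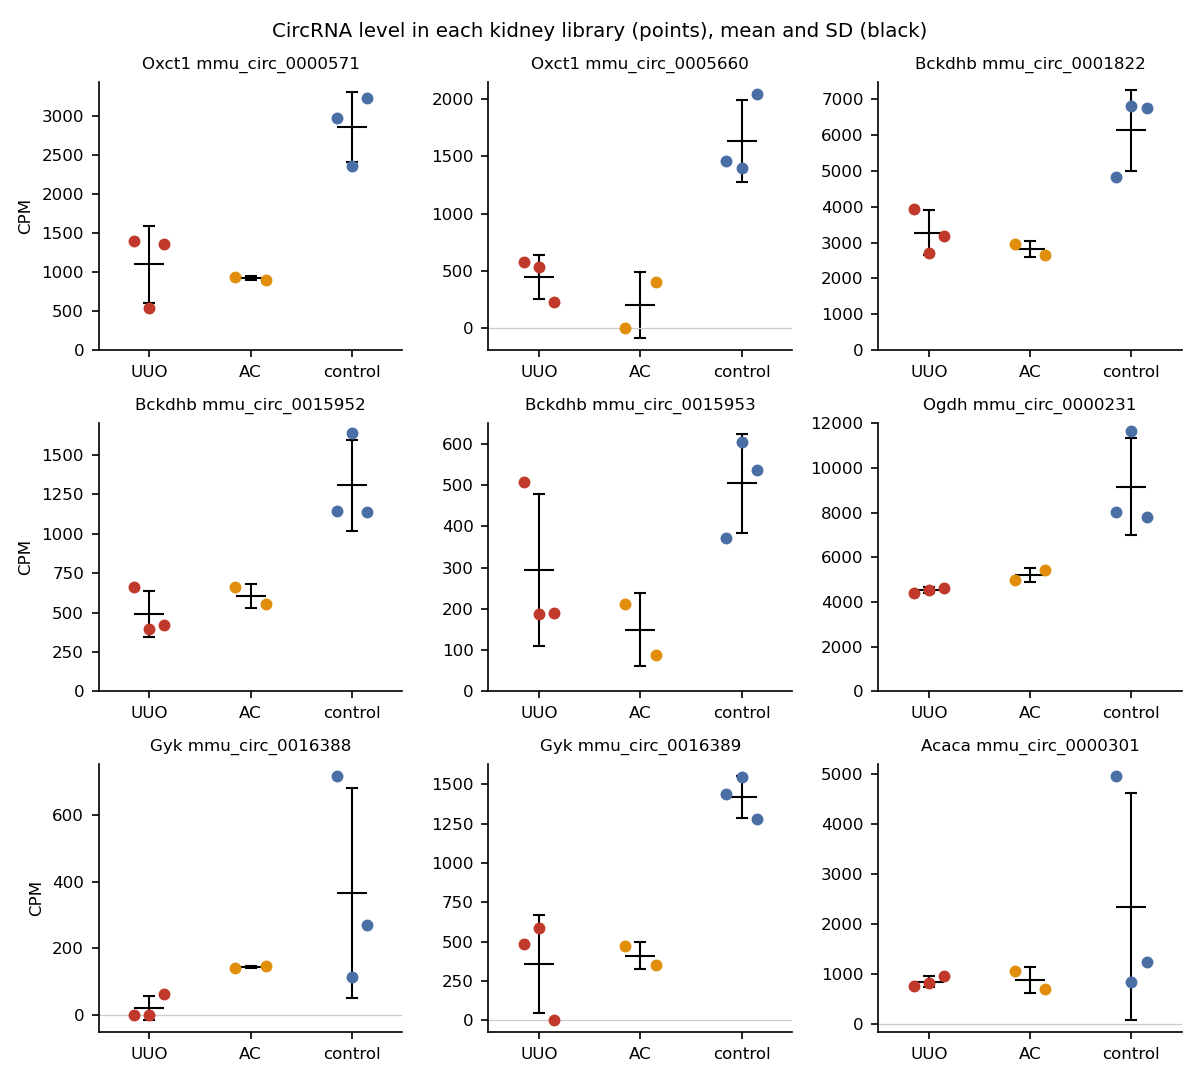
Level of each of the 9 member circRNAs that passed the filter, in CPM, by library and group; each point is 1 library, with the group mean and SD. UUO and AC libraries lie below control libraries in most panels, and control replicate 1 of Acaca, at 4972 CPM, stands apart.

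Counted over the 9 circRNAs tested, 4 were past an edgeR quasi-likelihood adjusted p of 0.05 as lower in UUO than in control, beside 1.50% of all circRNAs tested: mmu_circ_0000231 of Ogdh, mmu_circ_0000571 of Oxct1, and mmu_circ_0001822 and mmu_circ_0015952 of Bckdhb. For AC against control the count was 4, beside 1.43% of all: the same circRNAs of Ogdh and Oxct1, mmu_circ_0005660 of Oxct1 and mmu_circ_0001822 of Bckdhb. Both comparisons use the same control libraries, and the hosts were chosen on them, so nothing is read from these counts. Groups did not overlap for 7 of 9 in UUO against control, beside 11.0% of all circRNAs that were lower without overlap, and for 7 of 9 in AC against control, beside 15.4%. The median log2 difference over the 9 was -1.42 in UUO and -1.39 in AC, beside 0.02 and -0.02 over all 1471. Around the threshold, mmu_circ_0015952 (adjusted p 0.0277 in edgeR) was just inside and mmu_circ_0005660 (0.0619) just outside for UUO. For AC, mmu_circ_0000231 (adjusted p 0.0415 in edgeR) was just inside and mmu_circ_0015952 (0.169) just outside.

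Summed per host, and on the CPM scale of the host fit, the lower level was seen in both injured groups for all 5 hosts. Oxct1 sums averaged 1402 ± 430 CPM in UUO, 1024 ± 218 CPM in AC and 4266 ± 779 CPM in control, a level 3.05-fold lower in UUO and 4.18-fold lower in AC. Bckdhb sums averaged 3660 ± 907 CPM in UUO, 3303 ± 341 CPM in AC and 7413 ± 1418 CPM in control, 2.03-fold lower in UUO and 2.24-fold lower in AC. Neither injured group overlapped control for these hosts, nor for Ogdh and Gyk: 4 of 5 sums were lower without overlap in UUO, beside 12.8% of all hosts, and 4 of 5 in AC, beside 15.9%. Ogdh sums averaged 4073 ± 40.1 CPM in UUO, 4804 ± 276 CPM in AC and 8672 ± 2164 CPM in control, 2.13-fold lower in UUO and 1.81-fold lower in AC. Gyk sums averaged 339 ± 248 CPM in UUO, 505 ± 85.1 CPM in AC and 1666 ± 279 CPM in control, 4.96-fold lower in UUO and 3.26-fold lower in AC. The Gyk difference in UUO was the greatest of the 5, and it was -1.75 on the log2 scale without UUO replicate 3, against -2.31 with it. Acaca sums averaged 761 ± 84.9 CPM in UUO, 803 ± 248 CPM in AC and 2178 ± 2081 CPM in control, with overlap in both comparisons. In the same fit, 4 of 5 host sums were past the threshold in UUO, all but Acaca, beside 2.78% of 1185 hosts, and 3 of 5 in AC (Oxct1, Bckdhb and Ogdh), beside 1.43%.

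**Figure D3:**
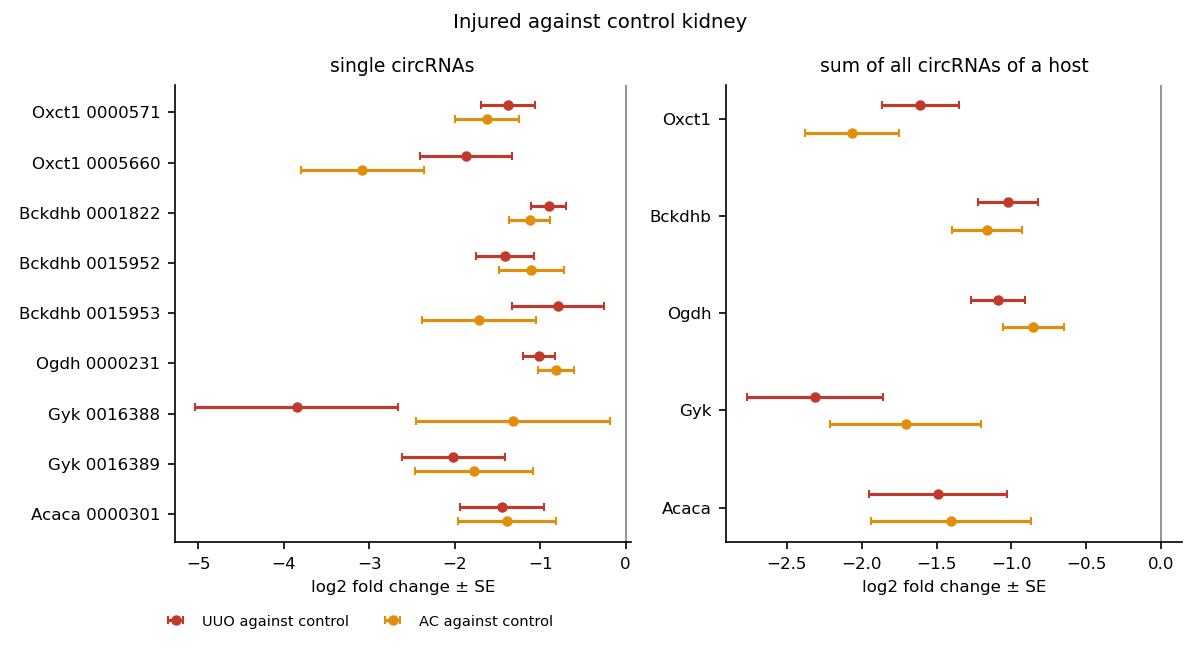
Fitted log2 fold changes against control, with SE, for the member circRNAs tested and the host sums, in UUO and in AC. All lie below 0, from -3.85 for Gyk mmu_circ_0016388 in UUO, where only 3 counts were seen, to -0.79 for Bckdhb mmu_circ_0015953 in UUO.

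The direct comparison of UUO with AC asks whether the circRNAs of these hosts stood at different levels in the 2 injuries. It was not itself used to choose the hosts, though its libraries were. The hosts were chosen for lower levels in both injured groups. That choice by itself draws UUO and AC toward similar levels, so a lack of difference is partly fixed by it. No member passed the test: 0 of 9 circRNAs and 0 of 5 host sums passed an adjusted p of 0.05 in edgeR, with 0.00% of all circRNAs passing in each direction. At an unadjusted p under 0.05 the counts were also 0 of 9 and 0 of 5, beside 2.52% of circRNAs lower and 3.06% higher over the whole table, and 3.12% of host sums lower and 2.87% higher, and DESeq2 and limma-voom called 0 members. The main Ogdh circRNA, lower in all 3 UUO libraries than in both AC libraries, had a log2 difference of -0.20 with a 95% interval of -0.64 to 0.24 (edgeR adjusted p = 0.940). Ogdh and mmu_circ_0016388 of Gyk were the 2 of 9 that were lower in UUO with no overlap, beside 11.1% of all circRNAs.

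The intervals differed widely in what they allow. For mmu_circ_0001822 of Bckdhb the log2 difference of UUO from AC was 0.22 (95% interval -0.29 to 0.72), and for mmu_circ_0000571 of Oxct1 it was 0.25 (-0.54 to 1.04). The less abundant mmu_circ_0015952 of Bckdhb stood at -0.31 (-1.15 to 0.53), mmu_circ_0016389 of Gyk at -0.24 (-1.78 to 1.29) and mmu_circ_0000301 of Acaca at -0.06 (-1.28 to 1.16). Larger differences, also with wide intervals, were those of mmu_circ_0005660 of Oxct1 at 1.21 (-0.38 to 2.81), mmu_circ_0015953 of Bckdhb at 0.92 (-0.51 to 2.35) and mmu_circ_0016388 of Gyk at -2.53 (-5.30 to 0.24). That of mmu_circ_0005660 rests on AC replicate 1, which held no count: without it the log2 difference was 0.12, and without AC replicate 2 the AC group is at 0 and no fold is given. For mmu_circ_0015953 it was 0.29 without UUO replicate 1 and 1.70 without AC replicate 1. In this comparison mmu_circ_0016388 had the smallest unadjusted p of the 9 (0.0707, adjusted p = 0.857 in edgeR). By summed counts its level was 6.21-fold lower in UUO, with a 95% counting interval of 1.64 to 34.6 that leaves out the spread between libraries. Adjusted p in edgeR lay between 0.857 and 0.997 over the 9. Host sums gave log2 differences of 0.46 (-0.19 to 1.10) for Oxct1, 0.14 (-0.34 to 0.62) for Bckdhb, -0.24 (-0.66 to 0.18) for Ogdh, -0.60 (-1.73 to 0.52) for Gyk and -0.08 (-1.21 to 1.04) for Acaca. These intervals do not show that the injuries are alike: for the sums of Oxct1, Gyk and Acaca they leave room for a difference larger than 2-fold.

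**Figure D4:**
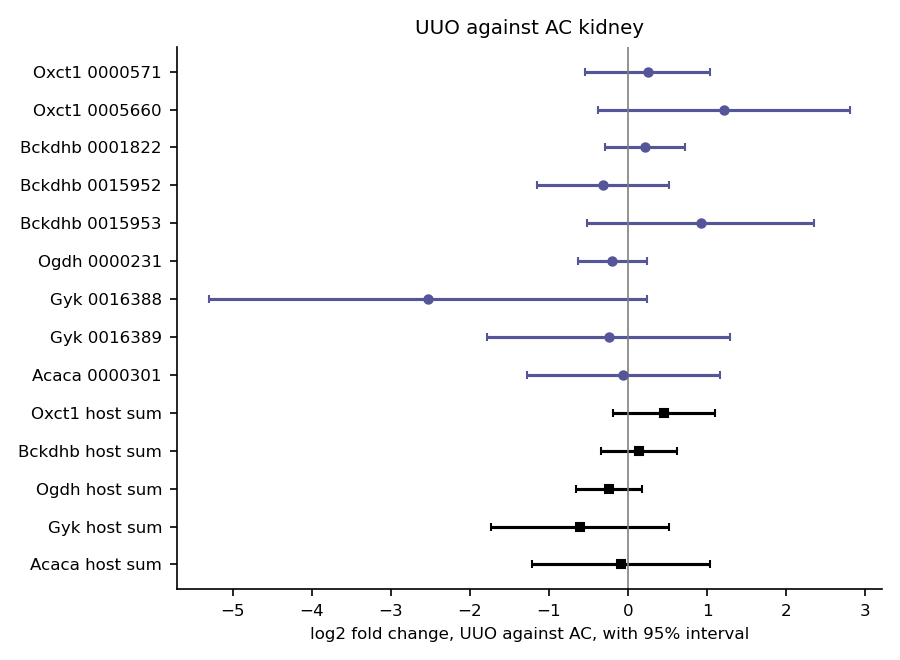
Log2 fold change of UUO over AC with its 95% interval for the 9 member circRNAs tested and the 5 host sums. Every interval includes 0; that of mmu_circ_0000231 of Ogdh is among the narrowest (-0.64 to 0.24) and that of mmu_circ_0016388 of Gyk the widest (-5.30 to 0.24).

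Within hosts, the circRNAs of Ogdh and Bckdhb kept 1 dominant form in all libraries, while the split of Oxct1 and Gyk counts varied more. Of Bckdhb counts, mmu_circ_0001822 held 81.1% ± 3.57 in UUO, 77.5% ± 0.337 in AC and 77.0% ± 2.52 in control. Its partner mmu_circ_0015952 held 12.0% ± 0.944 in UUO, 16.7% ± 0.664 in AC and 16.6% ± 2.68 in control. The UUO libraries, at 11.0% to 12.9%, lay below the AC libraries and below the lowest control library at 13.5%, and this share was not tested. The smaller mmu_circ_0015953 held 9.95%, 5.67% and 4.97% in UUO, 5.52% and 2.56% in AC, and 5.88% to 6.68% in control, so its injured libraries lay on both sides of control in UUO and below control in AC. Of Oxct1 counts, mmu_circ_0005660 held 14.3% to 50% in UUO, 0% and 31.1% in AC, and 32.5% to 37.5% in control. UUO replicate 2 lay above this tight control group, and all other injured libraries lay below it. Of Gyk counts, mmu_circ_0016388 held 0%, 0% and 100% in UUO (the last being 3 counts), 23.1% and 29.4% in AC, and 33.3%, 6.82% and 17.3% in control. Ogdh was nearly all mmu_circ_0000231, at 100% in every UUO library.

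**Figure D5:**
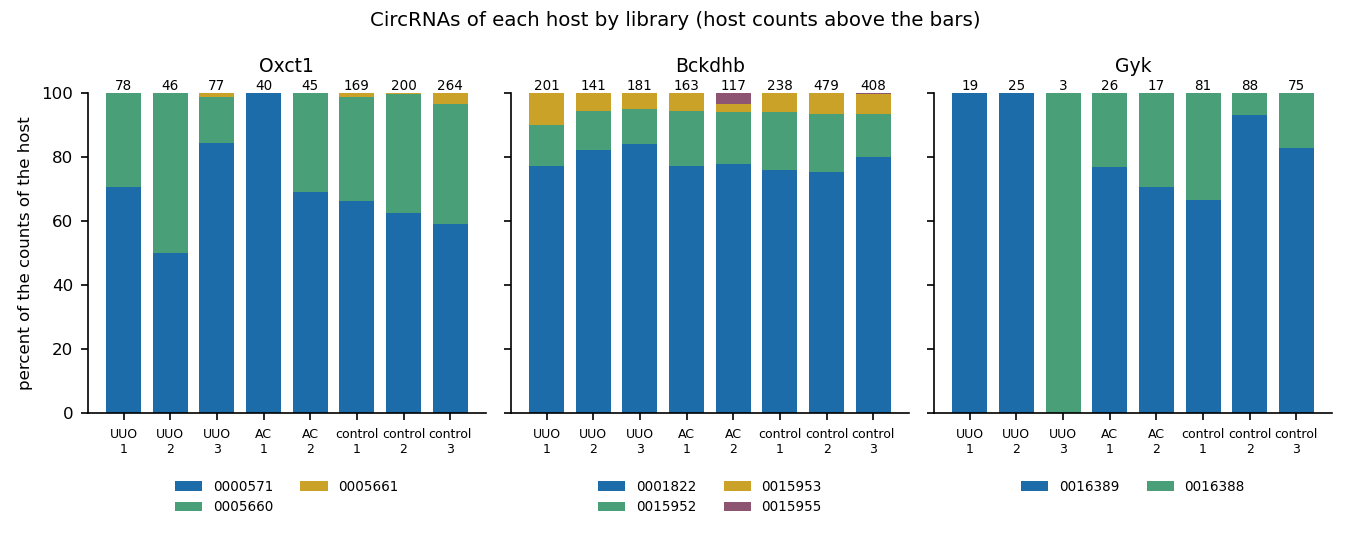
Share of the circRNA counts of Oxct1, Bckdhb and Gyk held by each circRNA of the host, in percent, by library. Bckdhb mmu_circ_0001822 holds the largest share in all 8 libraries, while the Oxct1 and Gyk splits vary among injured libraries, where counts are few.

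The circRNAs also differed in how well they are documented. The deposited table has a column for experimental evidence, filled for 4 of the 12 members (33.3%): mmu_circ_0000571 of Oxct1, mmu_circ_0001822 of Bckdhb, mmu_circ_0000231 of Ogdh and mmu_circ_0000301 of Acaca. Over all 6315 circRNAs it is filled for 17.2%, and among the tested ones for 38.1%, beside 44.4% of the 9 tested members. Those 4 members had a median of 1057 counts over all libraries, against 90.5 for the other 8, and over the whole table the medians were 56 and 11 counts. Each is the most abundant circRNA of its host, and no circRNA of Gyk has an entry.

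Other genes of the same pathways were followed in 5 lists of ketone body, branched-chain amino acid, citric acid cycle and pyruvate, fatty acid oxidation, and glycerol and lipid synthesis genes, written with earlier results of these data known. Apart from the 5 hosts they name 177 genes, of which 27 were hosts of 41 listed circRNAs and 7 had a circRNA past the filter. None of these 7 passed an edgeR adjusted p of 0.05 in either comparison with control or between UUO and AC. All 7 had negative log2 differences from control, with a median of -0.69 in UUO and -0.91 in AC, beside 49.4% and 50.6% negative over all circRNAs. As with the members, the filter passes a circRNA through whichever group is highest, so for those that were sparse in injured libraries, such as Slc16a7, Esrrg and Abcd3, the negative sign is partly fixed by the filter, and nothing is read from the count. The control libraries behind both values are the same as those behind the members' values.

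By pathway, the circRNA of Slc16a7, a transporter of monocarboxylates including ketone bodies, stood at a log2 difference from control of -2.07 ± 0.76 in UUO and -2.50 ± 0.94 in AC. Hibadh, which acts in valine breakdown, had 56 to 66 counts in UUO, 48 and 67 in AC and 66 to 143 in control, and differences of -0.62 ± 0.26 in UUO and -0.54 ± 0.30 in AC. Dlst, which encodes the second component of the complex that Ogdh begins, stood at -0.51 ± 0.61 in UUO and -0.62 ± 0.70 in AC. Aco1, the cytosolic aconitase, stood at -0.69 ± 0.33 in UUO and -0.91 ± 0.39 in AC. Among fatty acid oxidation genes, the nuclear receptor gene Esrrg stood at -0.94 ± 0.68 in UUO and -1.09 ± 0.79 in AC. Abcd3, a transporter of fatty acids into peroxisomes, had 8 to 10 counts in UUO, 0 and 3 in AC and 9 to 32 in control. It stood at -1.05 ± 0.67 in UUO, and its edgeR adjusted p of 0.0855 in AC was the smallest of the 7. Ppargc1a, the coactivator of mitochondrial biogenesis, stood at -0.65 ± 1.03 in UUO and -0.12 ± 1.15 in AC. The glycerol and lipid synthesis list had 8 listed circRNAs of 6 hosts and none past the filter, so no value stands beside those of Gyk and Acaca. These 7 were named after their values were seen.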

How the data were processed

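Mouse kidney circRNA libraries, 3 UUO, 2 AC and 3 control, were analysed from a deposited count table, which holds the authors' whole-number counts per circRNA. A second deposited table holds signal values, which equal each count divided by 1 constant per library (8718 to 11941; 100% of non-zero values came out whole within 0.01) and served as an alternative scaling. HISAT2, StringTie and mm9 are named in the submitters' processing notes; no source used here gives their settings or the caller of back-splices. Members and gene lists were chosen with earlier results of these data known.

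All 8 libraries entered 1 edgeR 4.0.16 quasi-likelihood fit of 3 groups (R 4.3.3; TMM; filterByExpr, minimum count 10 and total 15), with Benjamini-Hochberg adjustment over 1471 circRNAs, and a second over counts summed for 1185 hosts. The filter kept 82.5% to 84.8% of a library's counts, and the 32 circRNAs with no host name entered no sum. The fit was tested on simulated data. The SE of the fit is the absolute log2 difference divided by the square root of its quasi-likelihood F. The 95% intervals of the fit were built from that SE with a t distribution. Intervals for ratios of counts are exact. Counting intervals cover counting error only, and floors (3 counts) only that of the group with no count. DESeq2 1.42.0, limma-voom (limma 3.58.1), other scalings, no filter, only 2 groups, a replicate block and leaving out each library were the alternatives. Named were all 12 members, the 2 circRNAs of other hosts that correlated best with each host's main circRNA (1 of them is not reported here), and list circRNAs past the threshold, of which there were none. Promoter windows and their sequences were taken from RefSeq at the start nearest to that of the main circRNA's source transcript. Where that transcript is a RefSeq entry (all hosts but Gyk), the start used was that of a GENCODE transcript linked to it. The build of these windows is not the authors', and no coordinate was moved between builds. CircRNA sequences were not used here.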

Additional observations from a re-analysis of the deposited data

How the results depend on the processing

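Against control, each of the 9 member circRNAs and 5 host sums had a negative log2 difference in UUO and in AC under every alternative that gave a value. Counts of members past the threshold moved more. For UUO, 4 circRNAs were past it in the fit reported, 8 with no filter on low counts and 0 to 7 when 1 library was left out (0 without UUO replicate 2, 1 without UUO replicate 3, 1 without control replicate 3 and 7 without AC replicate 2). For AC, 4 were past it, 1 when only the 2 groups compared were fitted and 0 to 4 when 1 library was left out (0 without AC replicate 1 or control replicate 3, 1 without AC replicate 2 and 2 without UUO replicate 2). Of host sums, 4 were past it in UUO (4 to 5 without 1 library), and 3 in AC, with 5 under no filter and 1 to 5 without 1 library (5 without control replicate 2, 1 without AC replicate 2). The cause was not tested. Deviations of same-numbered libraries from their group means correlated at -0.11 to 0.04, and those of differently numbered libraries at -0.04 to 0.11. With 2 or 3 libraries per group such values are tied to one another, so they cannot decide whether libraries were paired. The fit with the replicate block called 1 member circRNA for UUO and 0 for AC, and 1 host sum for AC. Between UUO and AC the counts stayed at 0, and 8 of 220 values changed sign: Acaca mmu_circ_0000301 to 0.18 and its host sum to 0.16 under the block, and others when 1 library was left out. Without 1 library each, mmu_circ_0000301 ranged from -0.30 to 0.28 and its host sum from -0.32 to 0.31 (above 0 without AC replicate 1 or UUO replicate 1), mmu_circ_0016389 of Gyk from -0.85 to 0.37 (above 0 without UUO replicate 3) and the Bckdhb host sum from -0.031 to 0.30 (below 0 without UUO replicate 1). The deposited constants moved the median of all circRNAs to -0.26 in UUO and -0.34 in AC, and members remained lower than that median. Depth limits mmu_circ_0016388 and the 3 circRNAs under the filter most.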

Other observations

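CircRNAs of other hosts whose level across the 8 libraries was most like that of each host's main circRNA were looked up among 519 with a mean of at least 20 counts. Pearson's r of log2 CPM is given as a description, since the points share their libraries and the group differences. Closest to mmu_circ_0000571 of Oxct1 was mmu_circ_0003554 of Spag9, a scaffold of JNK signalling (r = 0.970). Closest to mmu_circ_0001822 of Bckdhb was mmu_circ_0008185 of Lactb2, a mitochondrial endoribonuclease (0.956), then mmu_circ_0001692 of Arhgap10 (0.946). For mmu_circ_0000231 of Ogdh they were mmu_circ_0004099 of Mipol1 (0.938) and mmu_circ_0001028 of Stk39 (0.931), the kinase SPAK that controls salt transporters of the distal nephron. For mmu_circ_0016389 of Gyk they were circRNAs of Zfp68 (0.930) and 1300001I01Rik (0.855), and for Acaca those of Spata5 (0.844) and Zfand6 (0.837). Log2 differences from control of these circRNAs ran from -1.43 (Lactb2) to -0.14 (Zfand6) in UUO. In AC they ran from -2.09 (Lactb2) to -0.14 (Zfand6). The r values were picked as the highest among 519, so their size is partly a result of the picking. For mmu_circ_0000301 of Acaca, control replicate 1 stood far above every other library, and r without that library was not computed.

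Among the members themselves, r over the 36 pairs of the 9 circRNAs tested ran from 0.129 to 0.931 across the 8 libraries. The hosts were chosen for lower levels in both injured groups, which by itself makes such values positive, so nothing is read from the sign. The closest pair joined hosts, mmu_circ_0015952 of Bckdhb with mmu_circ_0000231 of Ogdh (0.931), and the next was within Bckdhb (0.907). The weakest was mmu_circ_0015953 of Bckdhb with mmu_circ_0016388 of Gyk (0.129).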
